A study of Mus musculus with 4 samples.

Results

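The 8 cyclin-dependent kinase inhibitor genes of the mouse, Cdkn1a, Cdkn1b, Cdkn1c, Cdkn2a, Cdkn2b, Cdkn2c, Cdkn2d and Cdkn3, were taken by symbol from RNA-seq count tables that hold 23284 gene rows. All 8 were found, and all 8 were among the 13215 genes with enough counts to be tested. RNA came from c-Kit high leukemic cells, c-Kit being a receptor on immature blood cells, in a study of MLL leukemia on the C57BL/6 strain. The knock-out group was 2 Msi2 -/- mice and the control group was 2 Msi2 flox/flox mice, whose loxP-flanked alleles of this RNA-binding protein gene are intact. Per the series' design text each group's cells came from 2 mice, and all 4 libraries are labelled as leukemic cells. The leukemia driver as a construct, the Cre used, the ages and the exons deleted are not stated in the labels.

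Cyclin-dependent kinases (CDKs) move a cell through its division cycle when bound to cyclins, and the inhibitors hold them back. The INK4 proteins p16, p15, p18 and p19INK4d, encoded by Cdkn2a, Cdkn2b, Cdkn2c and Cdkn2d, bind CDK4 and CDK6 and block their pairing with D-type cyclins, which keeps RB proteins active against E2F. The CIP/KIP proteins p21, p27 and p57, encoded by Cdkn1a, Cdkn1b and Cdkn1c, bind cyclin-CDK pairs, mainly those of CDK2. Cdkn2a also encodes ARF, called p19ARF in mice, from another start and reading frame. ARF restrains MDM2 and so stabilises p53, which in turn activates Cdkn1a. Cdkn3 encodes a phosphatase that acts on CDK2 and is made mostly by dividing cells. In blood, p18, p27 and p57 are known for their part in the quiescence and renewal of stem cells, and the Ink4-Arf locus is kept low there by Polycomb proteins.

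The 4 inhibitor genes that DESeq2 called higher without Msi2 were Cdkn1a, Cdkn2a, Cdkn2d and Cdkn3. The 250 bases before their RefSeq starts (build GRCm38.p6) are shown because Cdkn1a and Cdkn2a each have 2 starts and because the upstream start of Cdkn1a carries a p53 element. Cdkn2c, which was not called, also has 2 starts and is not printed. Sequences run 5′ to 3′ on the strand of the gene. Capitals mark the p53 element in the Cdkn1a sequences and the GC box GGGCGG, on either strand, in the others.
Cdkn1a, upstream start, chr17:29090729-29090978, plus strand: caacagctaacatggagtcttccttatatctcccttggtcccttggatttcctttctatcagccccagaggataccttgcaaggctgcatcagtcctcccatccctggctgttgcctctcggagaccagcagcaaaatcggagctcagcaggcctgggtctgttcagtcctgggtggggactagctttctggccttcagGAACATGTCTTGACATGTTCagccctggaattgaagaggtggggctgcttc
Cdkn1a, downstream start, chr17:29093519-29093768, plus strand: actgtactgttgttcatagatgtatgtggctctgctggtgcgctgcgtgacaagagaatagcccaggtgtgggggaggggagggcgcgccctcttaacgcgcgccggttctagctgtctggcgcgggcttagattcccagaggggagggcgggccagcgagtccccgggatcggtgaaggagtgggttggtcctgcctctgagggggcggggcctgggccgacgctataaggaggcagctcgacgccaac
Cdkn2a, upstream start, chr4:89294620-89294869, minus strand: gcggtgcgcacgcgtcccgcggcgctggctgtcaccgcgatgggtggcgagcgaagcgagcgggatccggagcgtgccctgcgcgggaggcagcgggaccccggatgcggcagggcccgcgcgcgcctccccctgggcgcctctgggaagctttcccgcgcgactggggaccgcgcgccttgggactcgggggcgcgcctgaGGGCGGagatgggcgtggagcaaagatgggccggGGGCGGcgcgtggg
Cdkn2a, downstream start, chr4:89282193-89282442, minus strand: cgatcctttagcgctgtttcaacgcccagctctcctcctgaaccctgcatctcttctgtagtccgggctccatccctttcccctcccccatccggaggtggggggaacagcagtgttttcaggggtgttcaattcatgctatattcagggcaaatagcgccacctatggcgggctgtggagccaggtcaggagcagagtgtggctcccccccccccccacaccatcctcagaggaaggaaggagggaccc
Cdkn2d, chr9:21291210-21291459, minus strand: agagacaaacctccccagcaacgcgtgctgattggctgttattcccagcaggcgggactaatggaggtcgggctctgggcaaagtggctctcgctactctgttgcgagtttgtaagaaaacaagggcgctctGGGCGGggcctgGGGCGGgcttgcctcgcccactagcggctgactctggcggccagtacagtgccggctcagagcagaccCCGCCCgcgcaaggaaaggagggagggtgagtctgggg
Cdkn3, chr14:46760291-46760540, plus strand: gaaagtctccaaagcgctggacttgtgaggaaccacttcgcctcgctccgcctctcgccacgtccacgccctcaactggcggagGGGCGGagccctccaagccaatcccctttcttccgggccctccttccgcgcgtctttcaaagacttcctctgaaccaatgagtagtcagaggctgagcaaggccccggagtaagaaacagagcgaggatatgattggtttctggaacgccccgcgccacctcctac
The upstream Cdkn2a start is that of ARF and the downstream start that of p16. A p53 element was taken as a pair of adjacent half-sites with no spacer, with every core C and G in place and at most 1 mismatch in 20 bases. The upstream Cdkn1a window held 1 such element, 51 to 32 bases before the start, with 1 mismatch, and no other inhibitor window held one. Over all 32851 promoter windows of this length, 0.0578% held it. The GC box GGGCGG, found on either strand in 32.7% of all windows, occurred 2 times in the downstream Cdkn1a window, 2 times in the upstream Cdkn2a window, 3 times in that of Cdkn2d and 1 time in that of Cdkn3. It was not particular to the called genes. Among the others it occurred 3 times in the upstream Cdkn2c window, 1 time in that of Cdkn1b and 0 times in that of Cdkn2b. The E2F-type motif TTTCCCGC, on either strand in 0.895% of all windows, occurred 1 time in the upstream Cdkn2a window. CpG pairs numbered 40 before the upstream and 7 before the downstream Cdkn2a start, against a median of 6 over all windows. They numbered 29 before the upstream Cdkn2c start and 28 before that of Cdkn1b. These matches describe letters in these windows and are not evidence of binding. The gene counts do not separate transcripts from the 2 starts of either gene, so p16 and ARF are reported together as Cdkn2a.

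The libraries held between 72273679 and 87564774 gene counts. Values below are CPM, gene counts scaled to a common library total, with library sizes scaled by the TMM method. A gene with 3 counts would stand between 0.0343 and 0.0415 CPM. Msi2, the targeted gene, stood at 34.6 and 48.9 CPM in control mice and at 0.0915 and 0.221 CPM in the Msi2 -/- mice, which matches the labels. The controls also differed from the Msi2 -/- mice in sex-linked genes. Xist, the transcript of the inactive X chromosome, stood at 1455 CPM in control 1 and 654 CPM in control 2, and below 1 CPM in both Msi2 -/- mice. Summed, Uty, Kdm5d, Eif2s3y and Ddx3y of the Y chromosome stood at 41.1 and 184 CPM in controls 1 and 2 and at 224 and 242 CPM in the Msi2 -/- mice. Both control libraries thus held Xist together with Y-linked transcripts, in unequal proportions, while the Msi2 -/- libraries held nearly no Xist. The labels give no sex and do not say whether the control libraries hold cells of more than 1 animal, and genotype and this difference cannot be told apart. Here, names such as control 1 or Msi2 -/- mouse 1 stand for a library, whether or not it came from 1 animal.

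Most of the inhibitor genes stood higher without Msi2. For 6 of the 8 genes both Msi2 -/- libraries lay above both controls, against 23.7% of all genes tested. For 0 of the 8 did both lie below both controls, against 24.6% of all genes, and for the other 2 the groups overlapped. The 8 genes had a median log2 fold change of 0.84 (Msi2 -/- minus control), with 7 above 0 and 1 below, beside a median of -0.0020 over all 13215 genes, of which 49.7% lay above 0. By edgeR's quasi-likelihood test with Benjamini-Hochberg adjustment over all genes, 0 of the 8 passed 0.05, where 0.00757% of all genes did (1 gene, Ikzf2). Msi2 itself did not pass this test (log2 fold change -8.07, adjusted p = 0.122). A count of 0 by it thus does not show that the inhibitors were unchanged. At an unadjusted p under 0.05, edgeR had 4 of the 8 higher and 0 lower, against 6.69% and 6.17% of all genes. At an adjusted p under 0.05, DESeq2 called 4 of the 8 higher, against 3.10% of all genes, and 0 lower, against 2.71%. The likelihood ratio test of edgeR called 2 of the 8 higher, Cdkn1a and Cdkn2a, against 0.908% of all genes, and 0 lower, against 1.45%. Limma-voom called 0 of the 8 and 0 over all genes tested. With 2 libraries a group, the calls thus depend on the tool. The p-values weigh the group difference against a spread within groups that is estimated partly over all genes, from these 4 libraries alone.

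**Figure D1:**
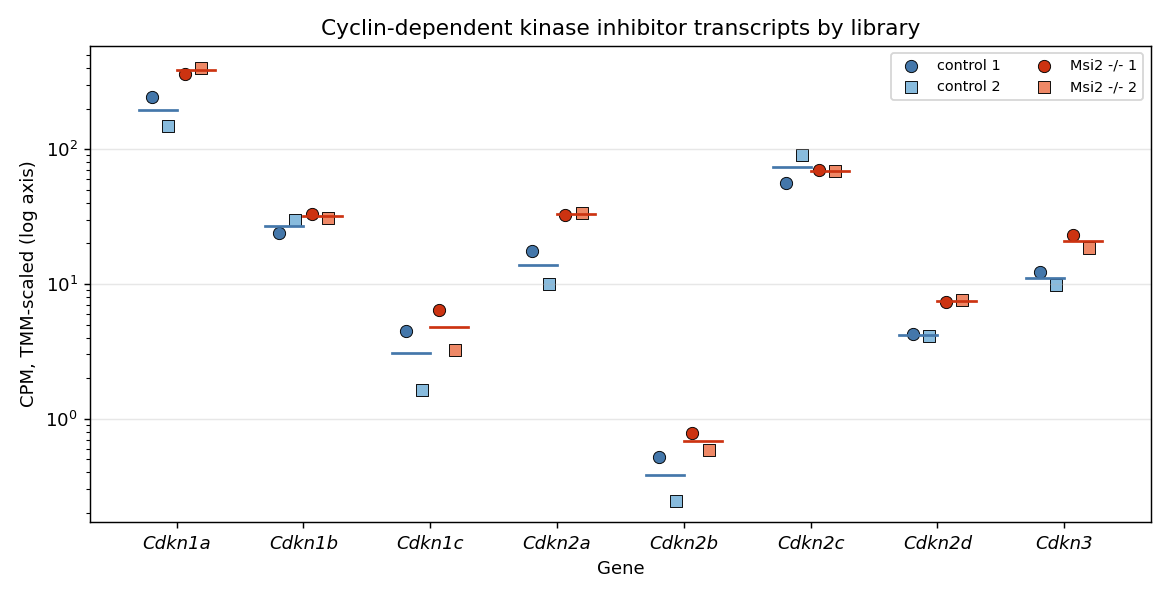
TMM-scaled CPM of the 8 inhibitor genes in each library (log axis), with circles for mouse 1 and squares for mouse 2 of each group and horizontal lines at the group means. Both Msi2 -/- libraries lie above both controls for Cdkn1a, Cdkn1b, Cdkn2a, Cdkn2b, Cdkn2d and Cdkn3, and the groups overlap for Cdkn1c and Cdkn2c.

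Cdkn1a, Cdkn1b and Cdkn1c lie on chromosomes 17, 6 and 7 of the GRCm38 build. Among these CIP/KIP genes, the largest difference was that of Cdkn1a, the p21 gene. Cdkn1a stood at 244 and 149 CPM in controls 1 and 2, and at 364 and 403 CPM in Msi2 -/- mice 1 and 2. The controls differed from each other by 1.64-fold, while the Msi2 -/- mice were within 1.11-fold of each other and above both. The group means were 196 ± 67.3 and 384 ± 27.7 CPM (SD, n = 2 each), a 1.95-fold difference. The log2 fold change was 0.97 (95% interval 0.27 to 1.66), with an adjusted p of 0.333 by edgeR and 0.00410 by DESeq2. An interval that leaves out 0 here belongs to this gene alone and carries no adjustment for the number of genes.

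Cdkn1b, the p27 gene, differed little between the groups. It stood at 23.7 and 29.7 CPM in control mice and at 32.8 and 31.0 CPM in the Msi2 -/- mice. Both Msi2 -/- values were above both controls, but the gap between control 2 and Msi2 -/- mouse 2 was smaller than that between the controls. Its log2 fold change was 0.25 (95% interval -0.15 to 0.66), with an adjusted p of 0.521 by edgeR and 0.519 by DESeq2. The p27 protein is controlled largely by its destruction, which RNA counts do not measure.

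Cdkn1c, the p57 gene, is expressed from the maternal allele of an imprinted domain. It stood at 4.45 and 1.65 CPM in control mice and at 6.38 and 3.26 CPM in the Msi2 -/- mice. The lower Msi2 -/- value lay below the higher control, so the groups overlapped, and the mice within a group differed by 2.70-fold in the controls and 1.96-fold without Msi2. The log2 fold change of 0.66 (95% interval -1.02 to 2.34) did not pass (adjusted p = 0.682 by edgeR, 0.719 by DESeq2). In the GENCODE M21 annotation an antisense gene overlaps Cdkn1c, and a further unassigned transcript lies opposite Cdkn1a. The labels do not state the strand setting of the counting, so reads of such partners cannot be told apart from those of Cdkn1a and Cdkn1c.

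Cdkn2a, Cdkn2b and Cdkn2c lie on chromosome 4 and Cdkn2d on chromosome 9 (GRCm38). Among these INK4 genes, Cdkn2a had the largest log2 fold change of the 8 inhibitors. It stood at 17.6 and 9.95 CPM in controls 1 and 2 (1423 and 725 counts), and at 32.7 and 33.7 CPM in the Msi2 -/- mice (2857 and 2590 counts). The Msi2 -/- mice were nearly equal and well above both controls, which differed from each other by 1.76-fold. The means were 13.7 ± 5.38 and 33.2 ± 0.693 CPM (SD, n = 2 each), a 2.41-fold difference. The log2 fold change was 1.27 (95% interval 0.46 to 2.08), with an adjusted p of 0.315 by edgeR and 0.00217 by DESeq2. Of all genes tested, 5.46% showed a log2 fold change of at least this size in either direction.

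Cdkn2b, the p15 gene beside Cdkn2a, was the least expressed inhibitor. It stood at 0.518 and 0.247 CPM in control mice and at 0.789 and 0.585 CPM in the Msi2 -/- mice. These values rest on 42, 18, 69 and 45 counts. The Msi2 -/- values lay above the controls, and the log2 fold change of 0.84 had a 95% interval of -0.59 to 2.27 (adjusted p = 0.549 by edgeR, 0.712 by DESeq2). A change of the size seen for Cdkn2a could not be told from none at this depth and spread. Within each library Cdkn2a had between 33.9 and 57.6 times the CPM of Cdkn2b.

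Cdkn2c, the p18 gene, showed no common direction. It stood at 56.4 and 90.3 CPM in controls 1 and 2 and at 70.4 and 68.3 CPM in the Msi2 -/- mice. The Msi2 -/- values lay between the controls, which differed from each other by more than either group mean did from the other. Its log2 fold change was -0.08 (95% interval -0.73 to 0.57; adjusted p = 0.908 by edgeR and 0.951 by DESeq2). Control 1 was lower than control 2 for Cdkn2c and Cdkn1b. It was higher than control 2 for Cdkn1a, Cdkn1c, Cdkn2a, Cdkn2b, Cdkn2d and Cdkn3.

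Cdkn2d, the p19INK4d gene, was the inhibitor on which the mice within a group agreed most closely. It stood at 4.26 and 4.12 CPM in control mice (345 and 300 counts) and at 7.35 and 7.54 CPM in the Msi2 -/- mice (642 and 580 counts). The distance between the groups was many times that within either, though a spread taken from 2 libraries is a rough measure. The means were 4.19 ± 0.0987 and 7.44 ± 0.137 CPM (SD, n = 2 each), a 1.78-fold difference. Its log2 fold change was 0.83 (95% interval 0.30 to 1.36), with an adjusted p of 0.313 by edgeR and 0.00421 by DESeq2.

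Cdkn3, the CDK2 phosphatase gene, had the smallest edgeR p of the 8. It stood at 12.3 and 9.91 CPM in control mice and at 23.2 and 18.3 CPM in the Msi2 -/- mice, with both Msi2 -/- values above both controls. The log2 fold change was 0.90 (95% interval 0.35 to 1.45), with an unadjusted p of 0.00962 and an adjusted p of 0.308 by edgeR and an adjusted p of 0.00438 by DESeq2. Of all genes tested, 3.06% had a smaller edgeR p. Mouse 1 was the higher in each group, by 1.25-fold in the controls and 1.27-fold without Msi2. Among 9222 other genes whose mean log2 CPM was 3 or more, those closest to Cdkn3 in log2 CPM centred on each gene's mean over the 4 libraries were Klhl6, Tle6 and Sc5d (Euclidean distances 0.0434, 0.137 and 0.142).

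Across the inhibitors, differences between the 2 controls were common. The controls differed by at least 1.5-fold for 5 of the 8 genes (Cdkn1a, Cdkn1c, Cdkn2a, Cdkn2b and Cdkn2c), against 14.0% of all genes tested. The Msi2 -/- mice differed by that much for 1 of the 8, Cdkn1c, against 20.0% of all genes. Summed over the CIP/KIP genes, the level was 272 and 180 CPM in controls 1 and 2 and 403 and 438 CPM without Msi2, most of it Cdkn1a. Summed over the INK4 genes it was 78.7 and 105 CPM in control mice and 111 and 110 CPM without Msi2. Cdkn2c made up most of the INK4 sum in every library. Cdkn2a CPM came to 7.19% and 6.68% of Cdkn1a CPM in controls 1 and 2 and to 8.98% and 8.35% without Msi2, so this ratio varied less than either gene.

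Per kilobase of exon (GENCODE M21 union of exons), Cdkn1a was the most abundant inhibitor in every library. The mean level in the controls was 72.3 ± 24.8 CPM per kb for Cdkn1a, 27.3 ± 8.92 for Cdkn2c, 11.7 ± 4.59 for Cdkn2a and 5.87 ± 0.930 for Cdkn1b (SD, n = 2). It was 4.70 ± 0.725 CPM per kb for Cdkn3, 2.84 ± 0.0669 for Cdkn2d, 1.57 ± 1.02 for Cdkn1c and 0.275 ± 0.138 for Cdkn2b. Among neighbours in this order, Cdkn1b and Cdkn3 nearly met, at 5.22 CPM per kb for Cdkn1b and 5.21 for Cdkn3 in control 1. Their means differed by little more than their SDs. No other neighbours met, and none overlapped within a group. Without Msi2, Cdkn2a at 28.3 ± 0.591 CPM per kb stood above Cdkn2c at 25.8 ± 0.537, and Cdkn3 at 8.78 ± 1.47 stood above Cdkn1b at 7.01 ± 0.289. With the longest transcript as the length, Cdkn2a and Cdkn2c without Msi2 were at 37.1 and 28.1 CPM per kb. The ratio of Cdkn2a to Cdkn2c CPM, in which length does not change the comparison between libraries, was 0.311 and 0.110 in the controls and 0.465 and 0.493 without Msi2.

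**Figure D2:**
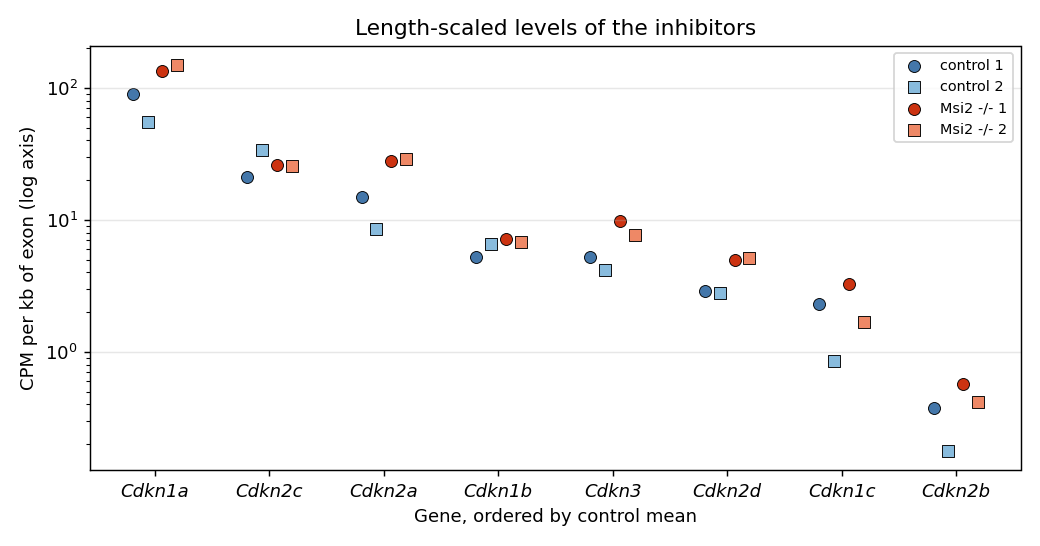
CPM per kilobase of exon of each inhibitor gene by library (log axis), ordered by the control mean, with circles for mouse 1 and squares for mouse 2. Cdkn1a is highest and Cdkn2b lowest in every library, and Cdkn2a lies below Cdkn2c in both controls and above it in both Msi2 -/- mice.

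For most of the inhibitors the size of the difference depended on which library was left out. Without control 1 the median log2 fold change of the 8 genes was 1.22, and without control 2 it was 0.54, compared with 0.84. For Cdkn2a the log2 fold change ran from 0.92 without control 2 to 1.74 without control 1, and for Cdkn1a from 0.66 to 1.37 in the same way. DESeq2 called Cdkn2a higher in all 4 fits that left out 1 library. It called Cdkn1a only where a control was left out, so that the difference between the controls did not enter the fit. Where both controls were kept, Cdkn1a was not called. Cdkn3 was called without control 1 and without Msi2 -/- mouse 2, and Cdkn2d in none of these fits. Each of these fits had a single library in 1 group. For Cdkn2d the log2 fold change itself moved only between 0.81 and 0.86, and for Cdkn3 it ran from 0.73 without Msi2 -/- mouse 1 to 1.07 without control 1. For Cdkn1c it ran from 0.11 without Msi2 -/- mouse 1 to 1.55 without control 1, for Cdkn2b from 0.41 without control 2 to 1.47 without control 1, and for Cdkn1b from 0.10 without control 1 to 0.43 without control 2. Cdkn2c changed sign, at 0.30 without control 2 and -0.38 without control 1.

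**Figure D3:**
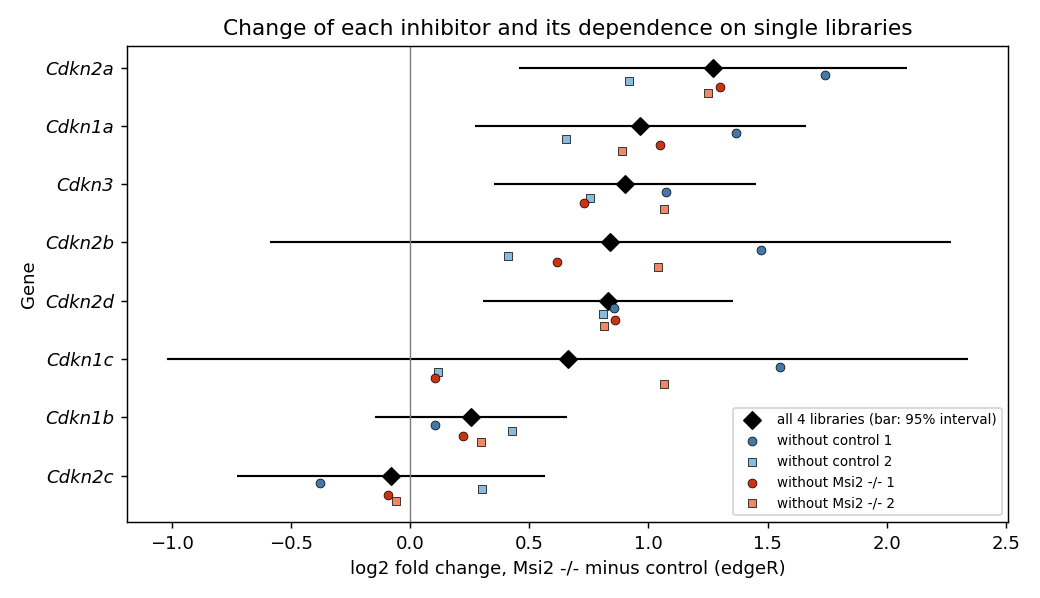
Log2 fold change (Msi2 -/- minus control, edgeR) of each inhibitor gene with all 4 libraries (diamond, with its unadjusted 95% interval) and with each library left out (coloured points). The interval lies above 0 for Cdkn2a, Cdkn1a, Cdkn3 and Cdkn2d, and the points without control 1 and without control 2 lie on opposite sides of the diamond for all 8 genes.

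Among the kinases and cyclins that the inhibitors bind, a D-type cyclin and the A-type cyclin Ccna2 were called by DESeq2. Cdk4, a target of INK4 proteins, stood at 366 and 387 CPM in control mice and 352 and 332 CPM without Msi2 (log2 fold change -0.14 with SE 0.073). Cdk6, the other INK4 target, showed a log2 fold change of 0.30 (SE 0.184), which ran from 0.06 without Msi2 -/- mouse 2 to 0.52 without Msi2 -/- mouse 1. Cdk2, bound by p21 and p27, had 0.13 (SE 0.077). The D-type cyclins, which activate CDK4 and CDK6, differed among themselves. Ccnd3 stood at 350 and 330 CPM in control mice and at 551 and 486 CPM without Msi2, a log2 fold change of 0.61 (SE 0.091) that DESeq2 called (adjusted p = 2.03e-06), also in all 4 fits that left out 1 library, and edgeR's quasi-likelihood test did not (adjusted p = 0.271). Ccnd2 lay the other way, at 133 and 168 CPM against 86.7 and 123 CPM (log2 fold change -0.52 with SE 0.216, adjusted p = 0.194 by DESeq2). Its log2 fold change ran from -0.28 without Msi2 -/- mouse 1 to -0.79 without mouse 2, and DESeq2 called it lower in the latter fit (adjusted p = 0.00134). Ccnd1 stood below 6 CPM in all 4 libraries, with the controls between the 2 Msi2 -/- mice. Ccne1, a cyclin partner of CDK2, showed a log2 fold change of 0.08 (SE 0.087), and Ccna2, the S and G2 phase cyclin, of 0.34 (SE 0.087, adjusted p = 0.0244 by DESeq2, and called in 0 of the 4 fits without 1 library). Of 20 tested CDK and cyclin genes 13 lay above 0, with a median of 0.12. DESeq2 called 2 of them higher, Ccnd3 and Ccna2, and 0 lower, against 3.10% and 2.71% of all genes. The likelihood ratio test called Ccnd3 alone, and edgeR's quasi-likelihood test called 0 (unadjusted p under 0.05: 2 higher, 0 lower).

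Regulators of p27 and its destruction were not called with all 4 libraries in the fit. Skp2, the ubiquitin ligase subunit that marks p27 for destruction, showed a log2 fold change of -0.24 (SE 0.116), and Cks1b, its cofactor, of -0.08 (SE 0.067). Akt1, a kinase that holds p27 out of the nucleus, had 0.22 (SE 0.069), and Foxo4, a forkhead factor that activates Cdkn1b, had -0.29 (SE 0.106). None of these was called by DESeq2 or by either test of edgeR. Of 18 tested genes 6 lay above 0 and 12 below, with a median of -0.07, and DESeq2 and both tests of edgeR called 0 (quasi-likelihood at an unadjusted p under 0.05: 1 higher, 1 lower).

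On the ARF and p53 axis, transcripts of p53 itself were not higher. Trp53 stood at 192 and 200 CPM in control mice and 185 and 169 CPM without Msi2 (log2 fold change -0.15 with SE 0.079, adjusted p = 0.507 by DESeq2). Mdm2, whose product ARF restrains and p53 induces, stood at 113 and 94.8 CPM against 133 and 128 CPM (log2 fold change 0.32 with SE 0.109, adjusted p = 0.144 by DESeq2). E2f1, an activator of the ARF start, showed a log2 fold change of 0.35 (SE 0.065, adjusted p = 0.00165 by DESeq2), and Dmtf1, another activator of ARF, had -0.32 (SE 0.088, adjusted p = 0.0597 by DESeq2). Of 12 tested genes of the axis 4 lay above 0 and 8 below, with a median of -0.05. DESeq2 called 1 higher, E2f1, against 3.10% of all genes, and both tests of edgeR called 0 (quasi-likelihood at an unadjusted p under 0.05: 3 higher, 1 lower). With 1 library left out DESeq2 called E2f1 in 0 of 4 fits.

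Of 30 tested genes that p53 activates, the inhibitors left out, DESeq2 called 7 higher and 1 lower, against 3.10% and 2.71% of all genes. Zmat3, an RNA-binding protein gene, stood at 88.8 and 79.7 CPM in control mice and 147 and 143 CPM without Msi2 (log2 fold change 0.78 with SE 0.083). Ccng1, the cyclin G1 gene, stood at 289 and 260 CPM against 441 and 467 CPM (log2 fold change 0.72 with SE 0.085). The controls differed by 1.11-fold for each of these genes, against 1.64-fold for Cdkn1a. Of the 30 targets 22 lay above 0 and 8 below, with a median of 0.23, where 49.7% of all genes lay above 0. In 13 of the 30 both Msi2 -/- libraries were above both controls and in 3 below both, against 23.7% and 24.6% of all genes. The likelihood ratio test called 4 higher (Ccng1, Phlda3, Trp53inp1 and Zmat3) and 0 lower, and the quasi-likelihood test called 0 (unadjusted p under 0.05: 8 higher, 2 lower). With 1 library left out of the edgeR fit, between 21 and 23 of the 30 lay above 0. The log2 fold change then ran from 0.71 to 0.86 for Zmat3, from 0.65 to 0.80 for Ccng1 and from 0.91 to 1.23 for Phlda3. The 1 called lower with all libraries was Sesn1, a sestrin gene (log2 fold change -0.62 with SE 0.159, from -0.83 to -0.43 with 1 library left out). The largest difference among the 7 higher was that of Phlda3, an inhibitor of AKT (1.06 with SE 0.142). Sesn1, Phlda3 and Trp53inp1 were chosen after their values were seen. The p53 element of the printed Cdkn1a window occurred before 19 genes in all, 6 of them tested. Besides Cdkn1a itself these were Ccng1, described above, Rps27l (log2 fold change 0.29, SE 0.073), Calhm2 (0.29, SE 0.154), Gm15987 (0.97, SE 0.450) and Mthfd1 (0.01, SE 0.119), of which DESeq2 called Ccng1 and Rps27l and for the last of which the groups overlapped. That set was assembled after the values of Cdkn1a were known, and its values are a description.

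Regulators of the Ink4-Arf locus were not called either. Of 22 tested Polycomb and related genes 12 lay above 0 and 10 below, with a median of 0.03. DESeq2 and both tests of edgeR called 0 of them (quasi-likelihood at an unadjusted p under 0.05: 1 higher, 0 lower). The 2 of smallest p were Ets2, an ETS factor that activates p16, with a log2 fold change of 0.34 (SE 0.118), and Ezh1, a Polycomb methyltransferase gene, with 0.29 (SE 0.117).

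Downstream of the inhibitors, 5 genes of the RB and E2F family were called higher by DESeq2 and 1 S phase target lower, and few of these calls held with 1 library left out. Over all genes DESeq2 called 3.10% higher and 2.71% lower. Of 17 tested RB and E2F family genes 10 lay above 0, with a median of 0.03, and DESeq2 called 0 lower while both tests of edgeR called 0 (quasi-likelihood at an unadjusted p under 0.05: 5 higher, 1 lower). E2f8, an E2F that represses its targets, stood at 122 and 116 CPM in control mice and 153 and 154 CPM without Msi2 (log2 fold change 0.37 with SE 0.064, adjusted p = 0.000273 by DESeq2). The other 4 were E2f1, described above, Rb1, the retinoblastoma gene (0.33 with SE 0.063), and the E2F genes E2f2 (0.63 with SE 0.151) and E2f7 (0.45 with SE 0.093), of which the last 3 were chosen after their values were seen. In the 4 DESeq2 fits that left out 1 library, E2f1, E2f7, E2f8 and Rb1 were called in 0, with log2 fold changes close to those with all libraries, and E2f2 was called in 1, without control 2. Of 20 tested E2F targets of G1 and S, 7 lay above 0 and 13 below, with a median of -0.06. Without control 2 this turned to 14 above and 6 below (median 0.05), and without control 1 it was 5 and 15 (median -0.18). DESeq2 called 0 higher and 1 lower, Cdc45, a replication helicase gene (log2 fold change -0.41 with SE 0.101, adjusted p = 0.0247 by DESeq2), which it called in 1 of the 4 fits without 1 library, and both tests of edgeR called 0 (quasi-likelihood at an unadjusted p under 0.05: 0 higher, 1 lower). Rrm2, a subunit of ribonucleotide reductase, showed a log2 fold change of 0.25 (SE 0.095).

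**Figure D4:**
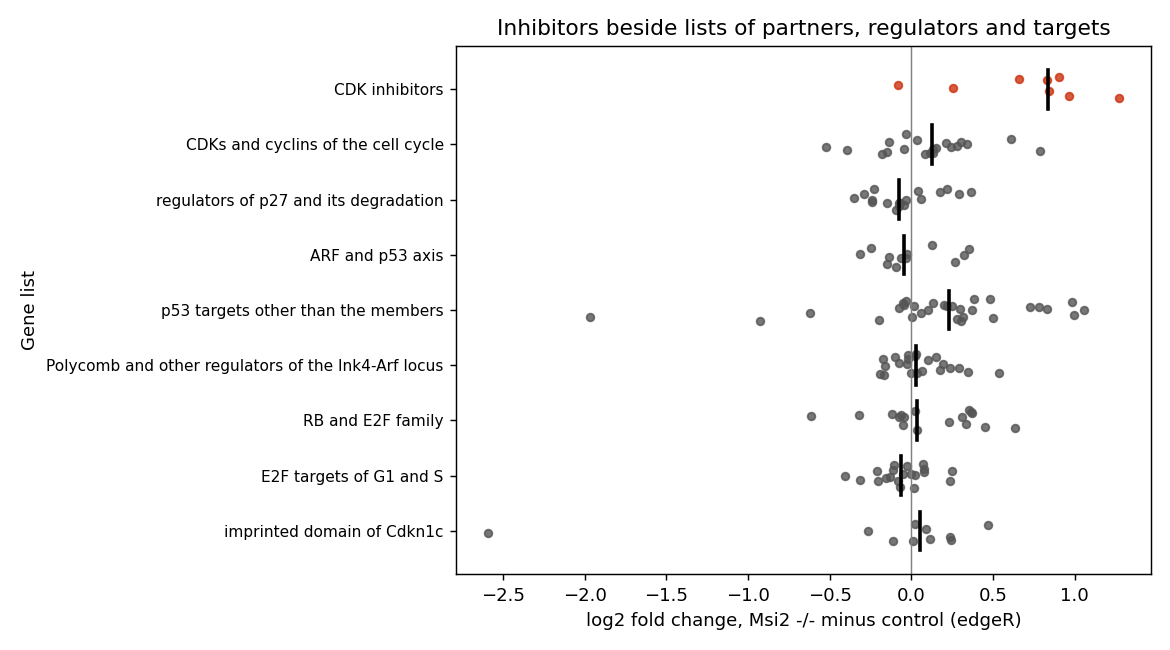
Log2 fold changes (Msi2 -/- minus control, edgeR) of the tested genes of each list, with 1 point per gene and a black bar at the median. The inhibitors have a median of 0.84 and the p53 targets of 0.23, while the medians of the other lists lie between -0.07 and 0.12.

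In the imprinted domain around Cdkn1c, calls among the neighbours came down to Ascl2 and depended on the test. Of 10 tested genes 7 lay above 0 and 3 below, with a median of 0.05 (5 and 5 with upper-quartile scaling). DESeq2 and edgeR's quasi-likelihood test called 0 (the latter at an unadjusted p under 0.05: 0 higher, 2 lower), and the likelihood ratio test called 1 lower, Ascl2. Ascl2, a transcription factor gene expressed from the maternal allele, stood at 1.52 and 0.741 CPM in control mice and at 0.114 and 0.260 CPM without Msi2 (log2 fold change -2.59 with SE 0.659, adjusted p = 0.0564 by DESeq2 and 0.0383 by the likelihood ratio test). DESeq2 called it in 1 of the 4 fits without 1 library, that without Msi2 -/- mouse 2 (adjusted p = 0.0473). It lay in the other direction from Cdkn1c. Tspan32, a tetraspanin gene of blood cells, showed a log2 fold change of -0.27 (SE 0.087).

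Markers of the sorted population and of other blood cells were read in the same libraries. In these bulk samples, fewer cells of a type and less RNA per cell cannot be told apart. Kit, Hoxa9, Hoxa10, Meis1, Mpo and Myb were all detected in every library, and their summed level was 5137 and 6021 CPM in control mice and 3024 and 3150 CPM without Msi2. Most of that sum was Mpo, the myeloperoxidase gene, at 4001 and 4953 CPM against 2117 and 2159 CPM. Of the 6 genes, 3 lay above 0 and 3 below, with a median log2 fold change of -0.04. Kit stood at 50.4 and 51.9 CPM in control mice and at 68.1 and 57.1 CPM without Msi2. Myb lay the other way, at 740 and 690 CPM against 500 and 591 CPM. Of 9 tested late neutrophil markers out of 10, 6 lay above 0 and 3 below. In 4 of the 9 both Msi2 -/- libraries were above both controls and in 2 below both. Of all genes tested, 23.7% were above and 24.6% below in this way. The summed level of the list was 1025 and 678 CPM in control mice and 1398 and 2225 CPM without Msi2. S100a8 stood at 273 and 210 CPM against 536.5 and 938 CPM, and S100a9 at 195 and 146 CPM against 349 and 565 CPM. Cxcr2 lay the other way, at 6.59 and 9.40 CPM against 1.58 and 3.57 CPM. The summed level of 8 monocyte markers was 1493 and 1432 CPM in control mice and 1059 and 2074 CPM without Msi2, so the sums overlapped. Most of that sum was Ly6c2, and single markers went both ways, 4 above 0 and 4 below. In 2 of the 8 both Msi2 -/- libraries were above both controls and in 2 below both, near the shares of all genes. Csf1r stood at 4.32 and 6.39 CPM in control mice and 10.5 and 14.0 CPM without Msi2. Irf8 lay the other way, at 15.3 and 34.7 CPM against 6.02 and 5.25 CPM. Summed erythroid markers came to at most 1.75 CPM, with Hba-a1 and Car1 at 0 in all 4 libraries, and Cd3e, Cd3g, Cd8a, Ms4a1 and Pax5 were at 0 as well. Summed B cell markers reached at most 27.2 CPM, nearly all of it Cd79b, and megakaryocyte markers stood between 2.52 and 5.98 CPM. Of 6 T cell markers only Lck stood above 1 CPM. The part of the late neutrophil and Mpo levels in the inhibitor differences was not tested.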

How the data were processed

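The authors deposited unnormalized read counts for 23284 gene symbols. A further 5 rows that name no gene held between 19.1% and 20.1% of counts and were left out. The submitters' processing notes name Trimmomatic, STAR, HTSeq, DESeq and the build mm9 but no version or annotation. The main test used edgeR 4.0.16 (R 4.3.3): filterByExpr (minimum count 10, minimum total 15), TMM scaling and a quasi-likelihood fit of group, two-sided, with Benjamini-Hochberg adjustment over 13215 genes. Standard errors were taken from the F statistic, and 95% intervals use edgeR's total degrees of freedom. DESeq2 1.42.0 (Wald test, 13350 genes with an adjusted p) and limma 3.58.1 (voom) were alternatives. Both count tests were first run on counts simulated from the spread that edgeR fitted to these data. That run checks the code and does not show how the tests behave on the real libraries. Each library counted as 1 sample. The chi-square per gene was 51.7 between controls and 125 between Msi2 -/- libraries. It shows that libraries of a group differed, not that each library came from 1 animal. Lengths come from GENCODE M21 (GRCm38) and promoter windows from RefSeq, where all 8 genes except Cdkn1c matched.

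The inhibitors and the 8 lists of partners, regulators and targets were chosen with earlier results of these data known. Named genes were the inhibitors, Msi2, 11 set partners or regulators, the 2 of smallest edgeR p in each list and 3 genes nearest in profile to the inhibitor of smallest p. Ikzf2, Mpo, Rps27l, Sesn1, Phlda3, Trp53inp1, Calhm2, Gm15987, Mthfd1, Rb1, E2f2, E2f7 and the sex-linked genes were added after their values were seen.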

Additional observations from a re-analysis of the deposited data

How the results depend on the processing

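The count of inhibitor genes called was 0 by edgeR's quasi-likelihood test under RLE or upper-quartile scaling, either filter, an adjusted p under 0.1, thinning, and each fit without 1 library, and 0 by limma-voom. At an unadjusted p under 0.05, edgeR had 4 with all libraries. The adjusted count was 4 by DESeq2, between 1 and 3 by DESeq2 with 1 library left out, a setting chosen after seeing the data, and 2 by the likelihood ratio test. With the filter at 1 CPM, Cdkn2b was not tested. Over all genes, 1 was called, and 6 with no filter, 776 by DESeq2 (390, 197, 627 and 899 without control 1, control 2, and Msi2 -/- mouse 1 and 2), 0 by limma-voom, 312 by the likelihood ratio test and 2 at an adjusted p under 0.1. With 1 library left out edgeR called 0 to 106, where the lone mouse of a group is assumed to vary like the others. The replicate block gave 0 calls over all genes and 0 inhibitors. The labels do not say that replicate numbers pair mice, and deviations of same-numbered libraries had a correlation of 0.0393 over genes. Directions held for 7 of the 8 inhibitors in every setting that tested them. Cdkn2c ran from -0.38 without control 1 to 0.30 without control 2 (0.31 by DESeq2), and Ccnd1 from -0.63 without Msi2 -/- mouse 2, also by DESeq2, to 0.85 without mouse 1. The cause of these shifts was not tested. Scaling by RLE or upper quartile moved the median of all genes by 0.0030 and -0.022 (log2).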
